A study of Mus musculus with 88 samples.

Results

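Complex I of the mitochondrial respiratory chain is built from subunits of both genomes. Here 45 genes that carry the symbols of its subunits were followed through tibialis anterior muscle of mice with colorectal tumours. The members were every protein-coding gene whose symbol starts with Nduf, without the Ndufaf assembly factors, and mt-Nd1, mt-Nd2, mt-Nd3, mt-Nd4, mt-Nd4l, mt-Nd5 and mt-Nd6. They make up 45 of the 56065 gene identifiers in the table, 38 in the nuclear genome and 7 in the mitochondrial genome. All 45 reached the minimum mean of 1 count per 1000000 (CPM), and all were tested in both experiments.

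Complex I takes electrons from NADH, passes them along a chain of iron-sulfur clusters to ubiquinone and pumps protons across the inner mitochondrial membrane. Its matrix arm holds the N module, which oxidises NADH, and the Q module, which reduces ubiquinone. The mt-Nd genes encode the proton-pumping core of the membrane arm, while every other subunit is made in the cytosol and imported. In skeletal muscle, complex I feeds the respiratory chain that supplies ATP in oxidative fibres.

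Tibialis anterior is a fast muscle of the lower leg, and its mRNA was sequenced after poly(A) enrichment in 88 libraries of 12 groups. In the C26 experiment, Balb/c mice of both sexes received cells of the C26 colon carcinoma line on both sides of the body, and muscle was taken after 10, 20 or 25 days, or 25 days after PBS. In the APC experiment, APC+/Min mice and wild types on a C57 black background were taken at 20 weeks of age. APC+/Min mice carry a mutant germline allele of the tumour suppressor Apc in every cell, muscle included, and develop intestinal tumours. C26 females gave 7 libraries after PBS and 8, 8 and 6 at the successive times, and C26 males gave 8 after PBS and 8, 7 and 8. Each sex of the APC experiment had 8 wild type and 6 APC+/Min libraries. The age of the Balb/c mice is not clear from the labels, and no PBS mice were taken at 10 or 20 days, so time and tumour cannot be told apart in those comparisons. Genotypes are the labels' own, since the mRNA level of Apc does not show a mutation of this kind.

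Library totals ran from 18.2 to 30.7 M estimated counts with a median of 21.5 M (M, counts divided by 1000000). The 8 marker genes of fast skeletal muscle summed to between 60736 and 161501 CPM in every library, so fast muscle transcripts were abundant in each. Marker levels in CPM, here and below, were scaled to the library total and not by TMM. Libraries differed in a length slope, the change in log2 level per unit of log2 transcript length over nuclear genes that are not members: a negative slope marks a library in which short transcripts stand high. This matters here because the nuclear members are short, with a median transcript length of 810 bases against 2754 for all nuclear genes over the minimum. The library of C26 females at 25 days numbered 6 stood far apart with a slope of -0.55, and 1 library of C26 males at 25 days, replicate 2, held Xist (191 CPM) beside the Y-linked Ddx3y (101 CPM). Alb, a liver gene, reached at least 10 CPM in 9 libraries. In bulk tissue, fewer cells of a type and less RNA per cell cannot be told apart.

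The 7 mt-Nd genes differ from the nuclear members in how their mRNAs are laid out, and the shortest of them shows this best. The coding sequence of mt-Nd4l (297 bases, GENCODE M21) is given because its last 7 bases, in capitals, are also the first bases of mt-Nd4, with which it shares an mRNA.
mt-Nd4l: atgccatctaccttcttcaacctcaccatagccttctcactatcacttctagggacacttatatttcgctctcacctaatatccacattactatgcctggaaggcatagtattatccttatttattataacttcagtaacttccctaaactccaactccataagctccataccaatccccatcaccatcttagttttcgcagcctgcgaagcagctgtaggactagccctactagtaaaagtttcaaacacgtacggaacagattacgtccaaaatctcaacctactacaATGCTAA
Reads over that overlap, and reads from mt-Nd5 and mt-Nd6, which lie on opposite strands, may have been split between genes, so the single values of these 4 genes are uncertain. Ndufb4 is uncertain for another reason: the processed pseudogene Ndufb4c stood at 70.6 CPM beside 79.7 CPM for Ndufb4, and the counting may have divided reads between them. Ndufb1-ps, which the annotation lists as a non-coding RNA at a shared promoter, stood at 69.5 CPM and was not a member by the rule.

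Of the nuclear members, 33 have an entry in the RefSeq promoter table (GRCm38.p6, 250 bases before to 50 bases after each gene's start), and these windows were searched on both strands for fixed words. The YY1 word AAGATGGC was present in 7 of the 33 (21.2%), against 862 of all 27025 genes (3.19%). In all 7 it reads along the gene's strand and begins 23 to 39 bases after the start, whereas over all windows with the word 360 of 903 (39.9%) have it after the start. Each stretch below is 30 bases, 5′ to 3′ on the gene's strand, with the word in capitals.
Ndufa3, chr7:3617376-3617405, plus strand: ccttgtcgccgccaagaacAAGATGGCcgg
Ndufa9, chr6:126849105-126849134, minus strand: ccgtgaggcattgtgggagAAGATGGCggc
Ndufb8, chr19:44555394-44555423, minus strand: gtgaaccgcggagaaggtgAAGATGGCtgc
Ndufc1, chr3:51408923-51408952, minus strand: gaggcggagcctgcggaacAAGATGGCgcc
Ndufs4, chr13:114388049-114388078, minus strand: cctggcgtttgcctacaggAAGATGGCggc
Ndufs6, chr13:73328439-73328468, minus strand: ggggtcaagggtcaccggcAAGATGGCggc
Ndufs7, chr10:80249454-80249483, plus strand: ttgtctgaaggccgaggccAAGATGGCggc
The NRF1 word, GCGCA and GCGC with 1 free base between them, was found in 7 of 33 (Ndufa5, Ndufa6, Ndufa8, Ndufa11, Ndufb4, Ndufs5 and Ndufs6, 21.2%) against 5.19% of all genes. Its strict form, with T as the free base, was found in 1 of 33 (3.03%) against 1.07%, and every strict match is also a match of the free form. The SP1 word GGGCGG was in 15 of 33 (45.5%) against 38.2%, and the ETS word CCGGAAGT in 1 of 33 (3.03%) against 4.31%. The word TCAAGGTCA of oestrogen-related receptors was in 0 of 33 windows against 0.466% of all genes. These matches are descriptions of letters in a window.

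The levels of the members spread widely within and between the genomes. Per kilobase of transcript and averaged over the libraries, mt-Nd1 stood highest at 18164 CPM per kb, followed by mt-Nd4 at 15231 and mt-Nd2 at 11223. The lowest of the mitochondrial members was mt-Nd4l at 2785 CPM per kb, still above every nuclear member. Among nuclear members Ndufa4 led at 971 CPM per kb and Ndufb9, an accessory subunit of the membrane arm, followed at 637. The lowest were Ndufb2 at 50.4 and Ndufa4l2 at 8.66 CPM per kb. Ndufa4 and its paralog Ndufa4l2 carry the family's symbol, but the Ndufa4 protein is counted with complex IV. The sums and counts of nuclear members include both genes.

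In the APC experiment both genomes' subunits stood lower in APC+/Min muscle. Levels are TMM-scaled CPM, summed over the members of a genome. In females the nuclear sum ran from 5593 to 8429 in wild types (median 7017) and from 2894 to 4858 in APC+/Min (median 4007). The mitochondrial sum ran from 61025 to 116828 in female wild types (median 76541) and from 29107 to 59766 in APC+/Min (median 38396). All 6 female APC+/Min libraries lay below every wild type library in both sums. Their means were 3948 ± 752 against 7091 ± 876 (SD, n = 6 and 8) for the nuclear sum, a ratio of 0.557, and the ratio of the mitochondrial means was 0.511.

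In males the nuclear sum ran from 5662 to 7604 in wild types (median 6138) and from 3591 to 6644 in APC+/Min (median 4851), with 4 of 6 APC+/Min libraries below every wild type. The mitochondrial sum ran from 68742 to 163041 (median 83807) and from 27100 to 71621 (median 54802), with 5 of 6 below. The ratio of means was 0.784 for the nuclear sum and 0.504 for the mitochondrial sum. Both of these male sums overlapped between the genotypes. The 3 highest mitochondrial sums of the experiment were male wild types, replicates 1 to 3, at 155316, 163041 and 117069.

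**Figure D1:**
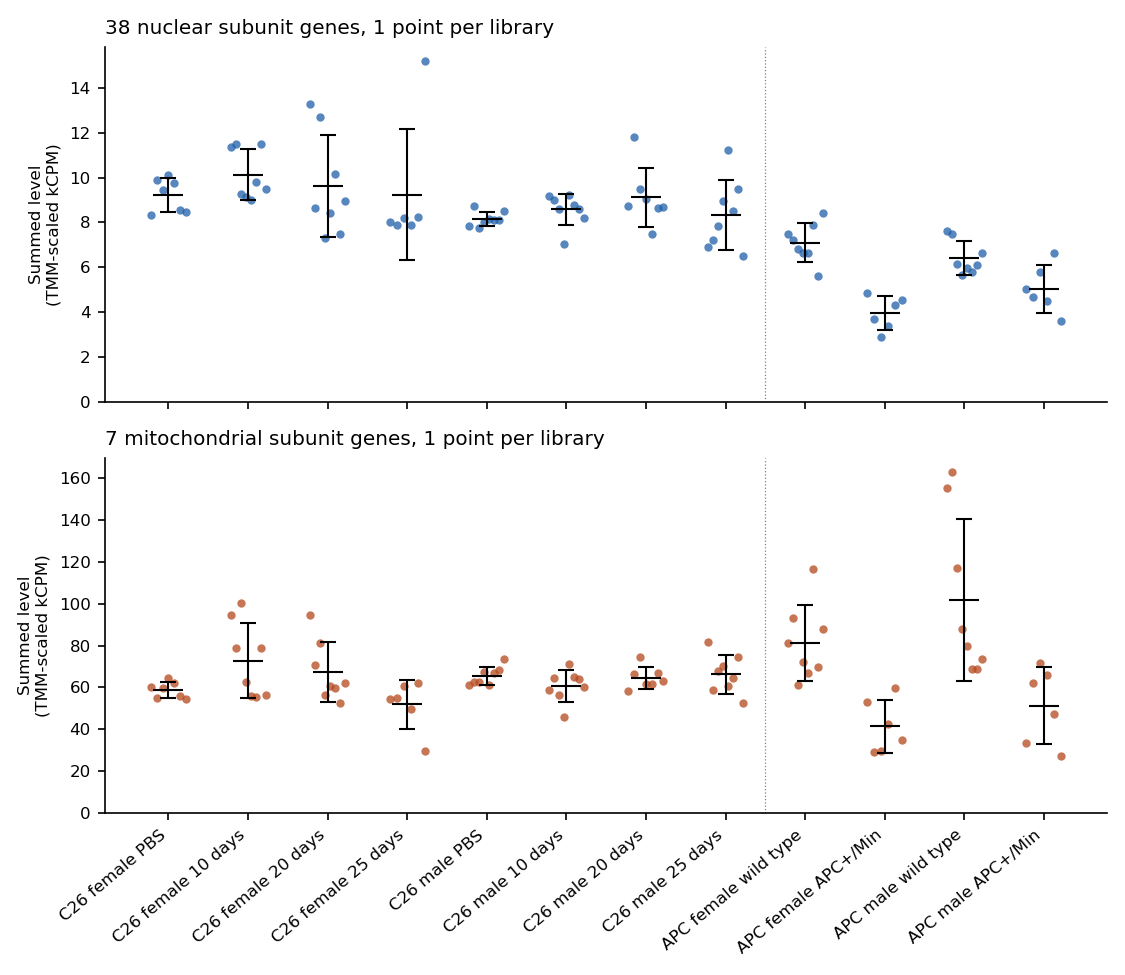
Summed level of the 38 nuclear (upper panel) and 7 mitochondrial (lower panel) complex I genes in TMM-scaled kCPM (CPM divided by 1000), 1 point per library in 12 groups, with bars for the group mean and SD; the dotted line parts the C26 and APC experiments, which were scaled apart. The female APC+/Min libraries lie below all wild types in both panels, and 1 C26 female library at 25 days lies at 15204 CPM in the upper panel.

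The mitochondrial sum exceeded the nuclear sum in every group, and the ratio of the sums shows how the genomes moved against each other. In APC females the mean ratio was 11.4 ± 1.86 in wild types and 10.5 ± 2.45 in APC+/Min (SD, n = 8 and 6), with 2 of 6 libraries below every wild type. In APC males it was 15.5 ± 4.33 and 10.3 ± 3.55, with 3 of 6 below. The ranges overlapped in both sexes.

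By gene, edgeR's quasi-likelihood test with Benjamini-Hochberg adjustment called 34 of 38 nuclear members lower in female APC+/Min muscle and none higher, with a median log2 change of -0.99. Over all 14795 genes tested, 38.0% were called and 17.9% were called lower, with a median log2 change of -0.01. All 7 mitochondrial members were lower, with a median of -1.01. Of the nuclear members 21 did not overlap between genotypes, all lower, against 5.25% of genes with a mean of at least 10 counts. Of the mitochondrial members 4 did not overlap: mt-Nd1, mt-Nd2, mt-Nd3 and mt-Nd4l. Ndufa3 (-0.46), Ndufa6 (-0.42) and Ndufa7 (0.04) were among the nuclear members not called and are named after their values were seen.

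In male APC+/Min muscle the genomes differed in their counts. Of the nuclear members 11 were lower and 1 higher, with a median of -0.27, whereas 6 of 7 mitochondrial members were lower, with a median of -1.06. Over all genes 33.1% were called and 16.5% were called lower. Nuclear members that did not overlap between genotypes numbered 6, all lower (Ndufa9, Ndufab1, Ndufb5, Ndufs1, Ndufs4 and Ndufv1), and mitochondrial ones numbered 2 (mt-Nd2 and mt-Nd4l), against 4.05% of genes. When both male groups were fitted alone, 7 nuclear members were called, all lower. When libraries were scaled by their totals in place of TMM, the median change of all genes moved to 0.30 in males and 0.24 in females. The nuclear members then had a median of 0.01 in males (4 higher, 6 lower) and -0.76 in females (29 lower), and the mitochondrial members had medians of -0.78 and -0.79. The split of all calls moved as well, to 4020 higher of 5085 in males and 4194 higher of 5853 in females, from 2457 of 4902 and 2981 of 5622.

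The difference between the sexes was tested as an interaction, the male change minus the female change. By edgeR it called 0 of 38 nuclear and 0 of 7 mitochondrial members, against 0.135% of all genes. At an unadjusted p below 0.05 it held 25 nuclear members, 37 of the 38 lay above 0, and the median was 0.67. DESeq2 called 2 nuclear members and limma-voom with quality weights 25, all with a weaker fall in males. For the mitochondrial members the median was -0.07, with 0 at an unadjusted p below 0.05, 0 by DESeq2 and 1 by limma-voom. Without the 2 male wild type libraries numbered 1 and 2, a choice made after seeing the data, edgeR called 21 nuclear members, and without female APC+/Min replicate 1 it called 6. The shares of all genes at an unadjusted p below 0.05, above 0 or called in these other fits are not given here. Whether these counts are particular to the members was not tested.

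**Figure D2:**
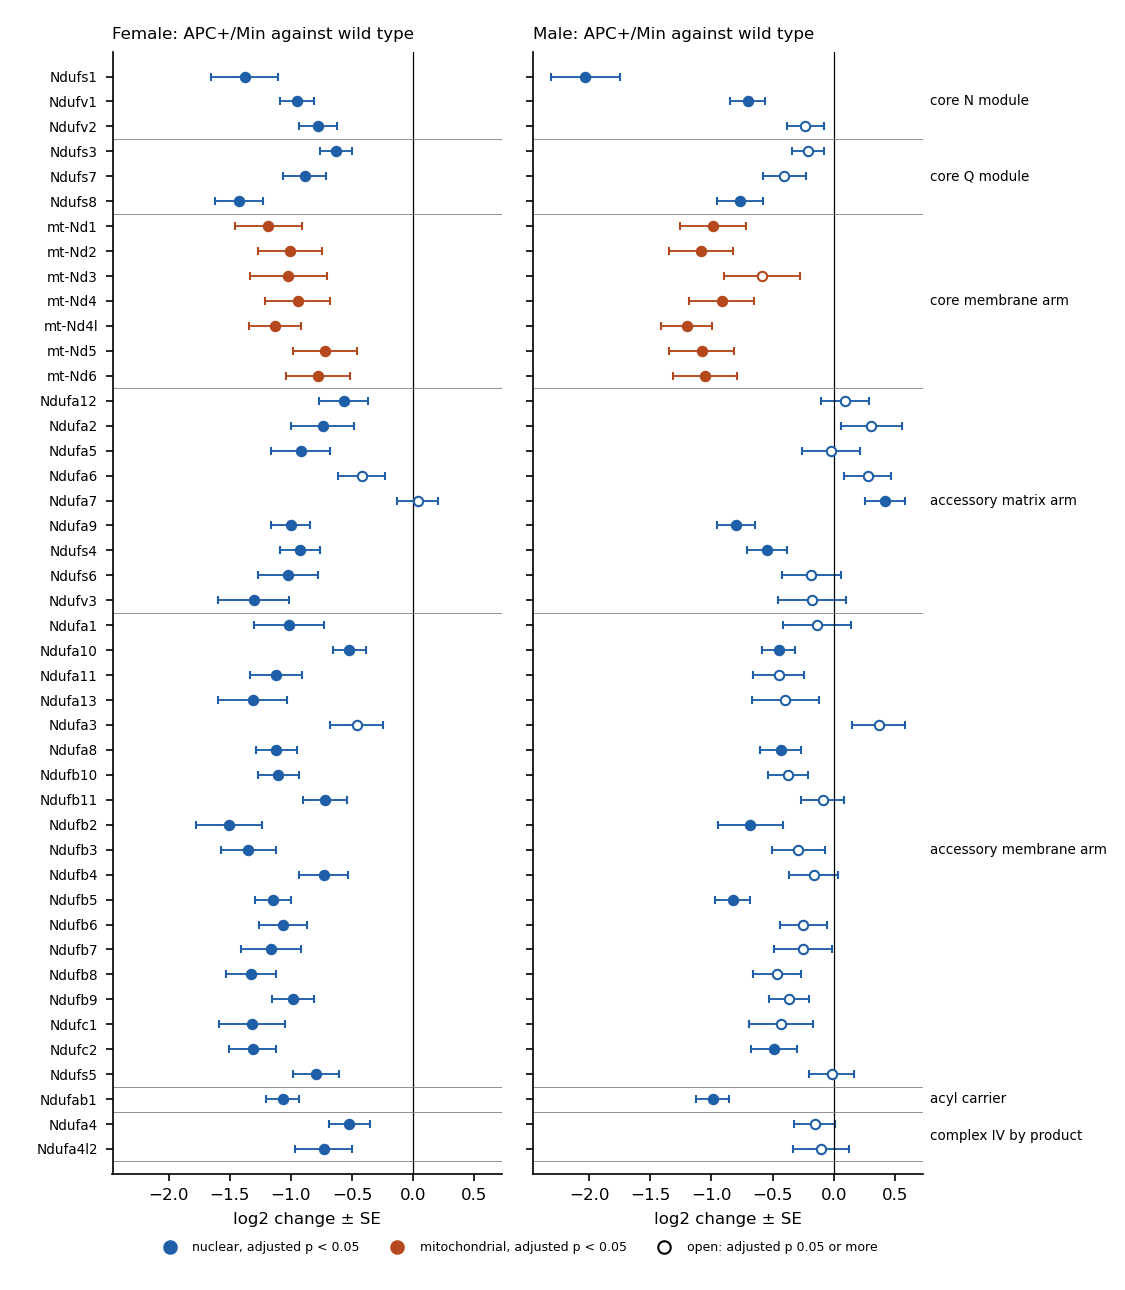
log2 change ± SE of the members named on the axis in APC+/Min against wild type muscle, females left and males right, ordered by role, with filled points for an adjusted p below 0.05 and open points for the rest. In females 34 nuclear and 7 mitochondrial points are filled and negative; in males the mitochondrial genes lie between -1.20 and -0.59 and the accessory genes between -0.83 and 0.42, apart from Ndufab1 at -0.99.

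The length slope moved with these groups. In females its mean was -0.01 in wild types and 0.08 in APC+/Min, and in males it was 0.03 in wild types and -0.11 in APC+/Min. Male wild type replicates 1 and 2 had slopes of -0.13 and -0.15, while the other 6 ran from 0.06 to 0.13. With the slope as a covariate, edgeR called 31 nuclear members lower and 1 higher in females and 32 lower in males, with medians of -0.74 and -0.68. The share of all genes called in that fit is not given here. The nuclear interaction in that fit had a median of -0.00 with 0 members called. The mitochondrial members were lower in 5 of 7 in females and 7 of 7 in males, with medians of -0.65 and -1.47, and their interaction had a median of -0.70 with 0 called. The covariate and the genotype overlap in part within each sex, and the part of transcript length in the result was not tested beyond this fit.

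**Figure D3:**
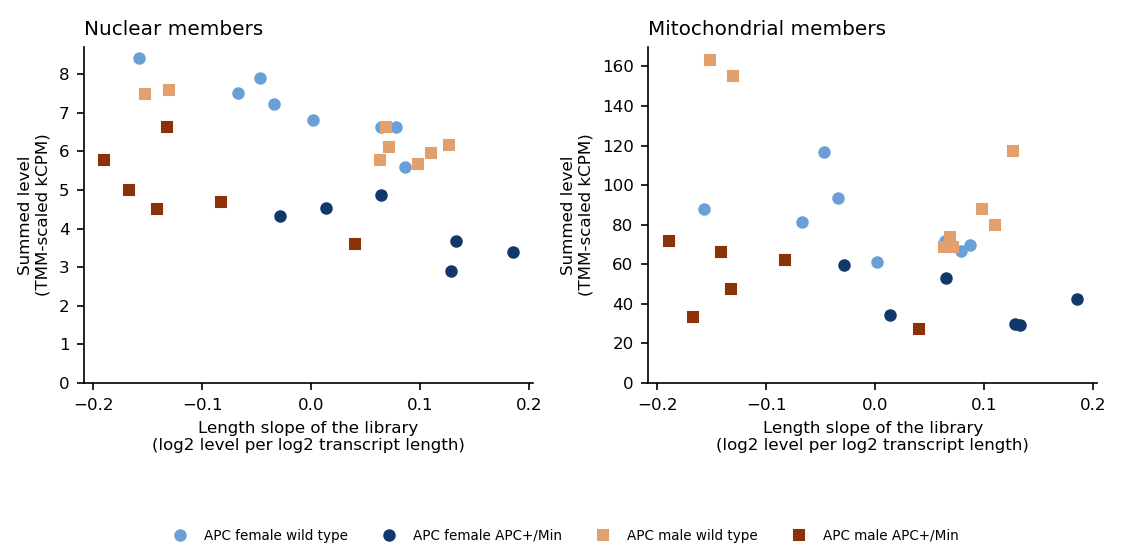
Summed level of nuclear (left) and mitochondrial (right) complex I genes in TMM-scaled kCPM against the library's length slope, 1 point per APC library, circles for females and squares for males, dark for APC+/Min. Male APC+/Min libraries lie mostly at negative slopes and female ones mostly at positive slopes.

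In the N module, Ndufs1 encodes the large iron-sulfur subunit of the entry arm. Its level ran from 305 to 522 CPM in female wild types (median 442) and from 108 to 314 in APC+/Min (median 141), with an overlap of the ranges through 1 library at each edge. In males it ran from 142 to 499 in wild types (median 433) and from 52.2 to 136 in APC+/Min (median 91.6), with no overlap. Replicates 2 and 1 of the male wild types were the lowest of their group at 142 and 217, and the other 6 lay at 404 or above. Ndufs1 fell by 2.03 ± 0.28 on the log2 scale in males (edgeR adjusted p = 7.03e-06) and by 1.38 ± 0.27 in females (adjusted p = 0.000277). It was the only nuclear member whose change was more negative in males than in females, with an interaction of -0.65 ± 0.37 that was not called (adjusted p = 0.393) and that was 0.37 with the length slope as a covariate. Under all alternatives run Ndufs1 was called lower, between -1.75 and -1.20 in females and between -2.23 and -1.38 in males.

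Ndufv1, which binds NADH and the flavin, ran from 272 to 383 CPM in female wild types (median 375) and from 155 to 229 in APC+/Min (median 183). In males it ran from 240 to 374 (median 308) and from 146 to 236 (median 174). The genotypes did not overlap in either sex. The changes were -0.95 ± 0.14 in females and -0.70 ± 0.14 in males, with edgeR adjusted p-values of 1.10e-05 and 0.000350. Ndufv2, the small iron-sulfur partner of Ndufv1, fell in females (-0.78 ± 0.15) and was at -0.23 ± 0.15 in males, where it was not called.

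In the Q module, Ndufs8, an iron-sulfur subunit at the joint of the arms, ran from 105 to 185 CPM in female wild types (median 147) and from 34.1 to 87.9 in APC+/Min (median 55.8). It fell by 1.42 ± 0.19 in females (adjusted p = 3.54e-06) and by 0.76 ± 0.19 in males (adjusted p = 0.00257). Ndufs7 and Ndufs3 fell in females, at -0.89 ± 0.18 and -0.63 ± 0.13, and were at -0.40 ± 0.17 and -0.21 ± 0.13 in males, where neither was called.

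The mitochondrial core genes moved as a close group in females, from -1.18 for mt-Nd1 to -0.72 for mt-Nd5. mt-Nd1, whose product sits where the membrane arm meets the Q module, ran from 16197 to 27431 CPM in female wild types (median 18632) and from 5525 to 13198 in APC+/Min (median 8079), without overlap. In males it ran from 17489 to 45581 (median 20421) and from 6909 to 18498 (median 14201), and the ranges overlapped. It fell by 1.18 ± 0.27 in females (adjusted p = 0.00108) and by 0.99 ± 0.27 in males (adjusted p = 0.00588). Without male wild type replicates 1 and 2, the male change was -0.57 with an adjusted p of 0.0578, and 4 of 7 mitochondrial members were called lower.

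mt-Nd4l, printed above, ran from 646 to 1063 CPM in female wild types (median 740) and from 267 to 499 in APC+/Min (median 356). In males it ran from 698 to 1149 (median 854) and from 240 to 548 (median 380), so the genotypes did not overlap in either sex. The falls were 1.13 ± 0.21 in females (edgeR adjusted p = 0.000120) and 1.20 ± 0.21 in males (adjusted p = 8.37e-05). The antiporter-like pump subunits mt-Nd2, mt-Nd4 and mt-Nd5 were at -1.01, -0.94 and -0.72 in females and at -1.09, -0.92 and -1.08 in males, all called. mt-Nd6, the only mt-Nd gene read from the other strand, was at -0.78 and -1.06 and called in both sexes. Its reads may have been split with those of mt-Nd5, as said above, so the single values of mt-Nd5 and mt-Nd6 are uncertain. In females the call of mt-Nd5 ended without wild type replicate 1, 2 or 6 or APC+/Min replicate 2, 3 or 6 (adjusted p up to 0.0943), and that of mt-Nd6 without wild type replicate 6 or APC+/Min replicate 2 or 3 (up to 0.0651). The mt-Nd5 call also ended under library totals (0.0763), the length slope (0.112), the replicate block (0.0621) and without libraries with Alb at 10 CPM or more (0.0518). That of mt-Nd6 also ended with the length slope (0.0731). In males the call of mt-Nd4 ended under limma-voom (adjusted p = 0.0983) and, by edgeR, without wild type replicates 1 and 2 (0.0645). mt-Nd3 was at -1.02 in females (called) and -0.59 ± 0.31 in males (adjusted p = 0.146, not called).

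Accessory subunits do no redox chemistry themselves but are needed for assembly and stability. In females 18 of 19 accessory genes of the membrane arm and 7 of 9 of the matrix arm were lower, with medians of -1.12 and -0.92. In males 5 of 19 and 2 of 9 were lower, with medians of -0.37 and -0.02, beside the 16.5% of all genes called lower (17.9% in females). Ndufb2, in the membrane arm, had the largest fall among nuclear members in females, ahead of Ndufs8 and Ndufs1, from 89.9 to 145 CPM in wild types (median 113) to 18.9 to 66.2 in APC+/Min (median 38.2), with no overlap. That is a change of -1.51 ± 0.27 in females, beside -0.68 ± 0.26 in males (adjusted p = 0.0461). The male call ended without wild type replicate 1, 2 or 8 or APC+/Min replicate 1, 2 or 6, and its adjusted p over all alternatives ran from 0.000692 to 0.284. Among accessory genes, Ndufb3 (-1.35), Ndufb8 (-1.32), Ndufa13 and Ndufc1 (both -1.31) came next in females and were between -0.46 and -0.29 in males, where none of them was called.

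Ndufa9 and Ndufab1 fell in both sexes. Ndufa9, a matrix arm subunit beside the Q module, ran from 215 to 287 CPM in female wild types (median 253) and from 78.1 to 178 in APC+/Min (median 127), and in males from 197 to 270 and from 98.9 to 188. Ndufab1, the mitochondrial acyl carrier protein that also serves fatty acid synthesis, ran from 182 to 245 CPM in female wild types (median 211) and from 74.9 to 130 in APC+/Min (median 97.1). Its male ranges were 163 to 207 and 76.0 to 125, and neither gene overlapped between genotypes in either sex. Ndufa9 was called lower in females (edgeR adjusted p = 2.06e-05) and in males (-0.80 ± 0.16, adjusted p = 0.000288), and Ndufab1 changed by -1.07 ± 0.13 in females and -0.99 ± 0.13 in males. The male change minus the female change was 0.20 ± 0.22 for Ndufa9 and 0.08 ± 0.18 for Ndufab1, and neither was called. Ndufb5, a membrane arm subunit, was at -1.15 ± 0.14 and -0.83 ± 0.14.

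Ndufa7, a small matrix arm subunit, went the other way. It ran from 67.5 to 115 CPM in female wild types (median 85.7) and from 65.4 to 112 in APC+/Min (median 88.9), a change of 0.04 ± 0.16. In males it ran from 64.9 to 119 (median 72.8) and from 76.6 to 126 (median 108), a change of 0.42 ± 0.16 with an edgeR adjusted p of 0.0487. The ranges overlapped in both sexes. The male call lies at the threshold: it ended when any of 10 of the 14 libraries was left out (wild type replicates 3 to 8 and APC+/Min replicates 1, 3, 4 and 5), and with the length slope as a covariate the change was 0.03 (adjusted p = 0.894). Its adjusted p over all alternatives ran from 0.000635 to 0.894. Ndufa4 and Ndufa4l2 fell in females (-0.52 ± 0.17 and -0.73 ± 0.23) and were at -0.16 and -0.10 in males, where neither was called. The female call of Ndufa4 ended without APC+/Min replicate 3 (adjusted p = 0.0556) and under library totals (0.122). That of Ndufa4l2 ended under library totals (0.113), with the length slope as a covariate (0.0501) and with the replicate number as a block (0.0503).

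**Figure D4:**
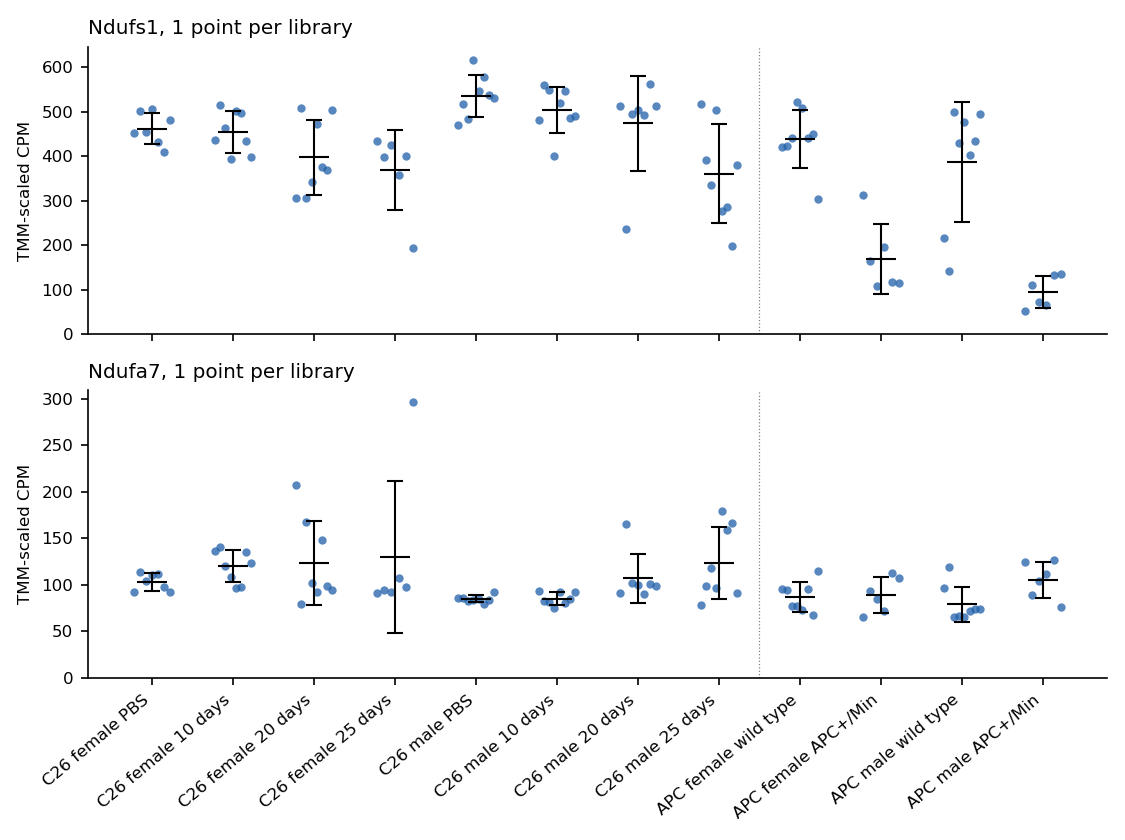
TMM-scaled CPM of Ndufs1 (upper panel) and Ndufa7 (lower panel), 1 point per library in 12 groups, with bars for the mean and SD; the dotted line parts the C26 and APC experiments, which were scaled apart. Ndufs1 is lowest in male APC+/Min muscle, between 52.2 and 136, and Ndufa7 reaches 297 in 1 C26 female library at 25 days.

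In the C26 experiment few members were called, and against PBS the 3 that were lay in males at 25 days. By edgeR, 0 of 38 nuclear and 0 of 7 mitochondrial members were called at 10, 20 or 25 days in females and at 10 or 20 days in males. Over all 15742 genes tested, the share called was 0%, 1.66% and 3.66% in females at 10, 20 and 25 days, and 0% and 0.985% in males at 10 and 20 days. At an unadjusted p below 0.05 the nuclear counts were 0, 0 and 1 in females and 0 and 7 in males, in that order. The mitochondrial counts were 4, 0, 0, 0 and 0, and DESeq2 and limma-voom called none either, except 3 nuclear members by limma-voom in females at 25 days. No member of either genome separated from PBS in any C26 comparison, and neither did the sums. Of genes with a mean of at least 10 counts, 0.0351%, 0.443% and 2.33% did so in females and 0.0422%, 0.562% and 1.86% in males.

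The medians of the members in those comparisons were small. In females the nuclear median was 0.15, 0.07 and 0.01 at 10, 20 and 25 days, and the mitochondrial median was 0.31, 0.21 and -0.19. In males the nuclear median was 0.11, 0.25 and 0.08, and the mitochondrial median -0.12, -0.01 and -0.02. All of these comparisons within a sex share the same PBS libraries.

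In females at 25 days the mean of the nuclear sum rests on 1 library. The nuclear sum of PBS females ran from 8335 to 10093 CPM (median 9428), and 5 of the 6 libraries at 25 days lay below every one of them, between 7876 and 8244. Replicate 6, at 15204, brought the mean to 9233 ± 2929 (SD, n = 6) beside 9218 ± 744 (n = 7) after PBS. Without it the mean was 8039 ± 166 (n = 5), and edgeR still called 0 nuclear members. The ratio of mitochondrial to nuclear sum turned as well: its mean was 6.40 ± 0.481 after PBS and 6.15 ± 2.11 at 25 days, and 7.00 ± 0.513 without replicate 6. The median of the mitochondrial sum was 59574 CPM after PBS and 54666 at 25 days.

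In the other C26 groups the medians of the nuclear sum were 9645 and 8777 CPM at 10 and 20 days in females, and in males 8121 after PBS and 8694, 8714 and 8157 at the 3 times. The medians of the mitochondrial sum were 70734 and 61338 CPM in females at 10 and 20 days, and in males 64813 after PBS and 62011, 63027 and 66234. The medians of the ratio were 6.38 in PBS females and 6.86, 7.08 and 6.89 at the 3 times, and 8.17 in PBS males and 7.23, 7.25 and 7.95. All of these groups overlapped with PBS.

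Ndufs1 and Ndufa7 show how single members ran through these groups. In females Ndufs1 ran from 409 to 506 CPM after PBS (median 455), from 394 to 515 at 10 days (median 450), from 307 to 508 at 20 days (median 373) and from 194 to 435 at 25 days (median 400). In males its medians were 536, 505, 505 and 358 CPM in that order. The ranges of neighbouring groups overlapped throughout, and the lowest value of each sex lay in the 25-day group, at 194 in females and 199 in males. Ndufa7 had medians of 104, 122, 100 and 95.9 CPM in females, and highest values of 114, 141, 207 and 297. In males its medians were 84.6, 84.0, 99.9 and 108 CPM, and its highest values 92.6, 93.2, 165 and 180.

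**Figure D5:**
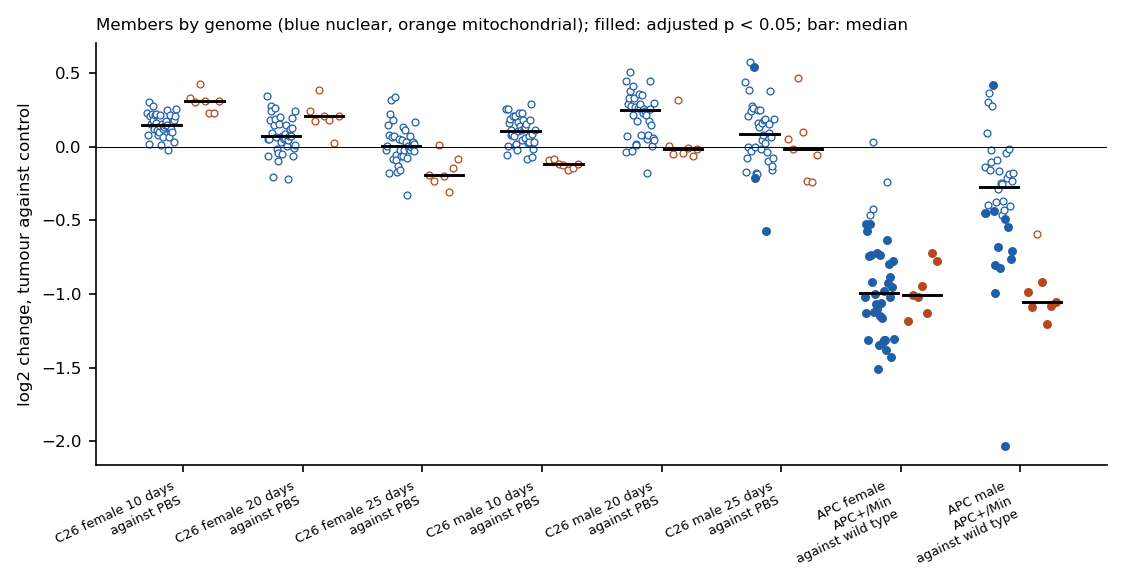
log2 change of every member against the control of its sex in the 8 tumour comparisons, nuclear genes in blue and mitochondrial genes in orange, filled where the adjusted p is below 0.05, with a bar at each median. The C26 points lie around 0 and the APC points mostly below it.

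At 25 days in C26 males, 3 of 38 nuclear and 0 of 7 mitochondrial members were called, where 22.3% of all genes were. Ndufs1 ran from 472 to 618 CPM in PBS males (median 536) and from 199 to 519 at 25 days (median 358), a change of -0.57 ± 0.14 (edgeR adjusted p = 0.00276). Ndufa9 ran from 277 to 307 (median 288) and from 214 to 307 (median 242), a change of -0.21 ± 0.07 (adjusted p = 0.0297). Ndufa7 rose by 0.54 ± 0.18 (adjusted p = 0.0239), from 79.2 to 92.6 CPM in PBS (median 84.6) to 78.2 to 180 (median 108). All 3 ranges overlapped with PBS. Ndufs1 was called under every alternative run, between -0.66 and -0.35. The call of Ndufa7 ended without replicate 5, 6 or 7 of the 25-day males, which held its 3 highest values (adjusted p up to 0.0812). The call of Ndufa9 ended without PBS replicate 4 or 25-day replicate 3, 6, 7 or 8 and when the males' PBS and 25-day groups were fitted alone (adjusted p up to 0.0847). Ndufs1 is the longest of these mRNAs at 2625.5 bases and Ndufa7 one of the shorter at 528, and the mean length slope was 0.10 in PBS males and -0.02 at 25 days. With the slope as a covariate, 14 nuclear members were called, all lower, and Ndufa7 stood at 0.14 (adjusted p = 0.0710). The share of all genes called in that fit is not given here. Without the covariate, the nuclear count was 1 without replicate 6 or 7 of the 25-day males and 5 without replicate 1 or 4. The library with both Xist and Ddx3y did not alter it.

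The step from 10 to 25 days uses 10-day libraries in place of PBS but the same 25-day libraries, so its calls are not independent of those above. In males it called Ndufs1 (-0.48 ± 0.14), Ndufa9 (-0.23 ± 0.07) and Ndufa7 (0.53 ± 0.18), together with mt-Nd3, which rose by 0.58 ± 0.22 (edgeR adjusted p = 0.0460). Over all genes 21.5% were called. The call of mt-Nd3 ended when any of 10 of the 16 libraries was left out (10-day replicates 1, 3, 4, 6, 7 and 8 and 25-day replicates 3, 5, 6 and 7), and that of Ndufa7 without 25-day replicate 5, 6 or 7. The call of Ndufa9 ended without a filter on low counts (adjusted p = 0.0545) and with both groups fitted alone (0.0947). In females 0 of 38 nuclear members were called, with 2 at an unadjusted p below 0.05, 0 by DESeq2 and 29 by limma-voom with quality weights. Of the female mitochondrial members, mt-Nd1 (-0.52 ± 0.14), mt-Nd2 (-0.54 ± 0.14) and mt-Nd4 (-0.51 ± 0.15) were called lower, where 4.49% of all genes were called. Without female 25-day replicate 6, the library with the slope of -0.55, no mitochondrial and 3 nuclear members were called, and without female 10-day replicate 3 the mitochondrial count was 1. The call of mt-Nd4 also ended without 10-day replicate 1, 2 or 7 or 25-day replicate 2 or 4 (adjusted p up to 0.120 with 1 library left out), and none of the 3 was called when both groups were fitted alone. With the length slope as a covariate, 17 nuclear and 6 mitochondrial members were called in females and 21 nuclear and 0 mitochondrial members in males. The shares of all genes in this paragraph belong to the main fit, and those of the other fits are not given here.

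Sexes were compared next. In PBS muscle 1 of 38 nuclear members was called between the sexes, Ndufb3, a membrane arm subunit, where 2.70% of all genes were called. The nuclear median was -0.27 for males against females, with 33 of 38 below 0, and -0.04 with the length slope as a covariate. The share of all genes below 0 is not given here. Ndufb3 ran from 115 to 168 CPM in females (median 128) and from 79.7 to 107 in males (median 88.5), without overlap, a change of -0.56 ± 0.16 with an edgeR adjusted p of 0.0392. The call ended when any of 12 of the 15 libraries was left out, that is any but female replicates 1 and 3 and male replicate 2, and its adjusted p over all alternatives ran from 8.21e-05 to 0.841. The nuclear count was 17 by limma-voom and 27 when both PBS groups were fitted alone, 26 of them lower. The shares of all genes called in those fits are not given here. The mitochondrial median was 0.14, with 0 called by edgeR and DESeq2 and 1 by limma-voom. The mean length slope was -0.01 in PBS females and 0.10 in PBS males, and with it as a covariate 0 nuclear members were called. In wild types of the APC experiment edgeR called no member, where 0.872% of genes were called; 2 nuclear members had an unadjusted p below 0.05, DESeq2 called 0 and limma-voom 2. The medians there were -0.14 for nuclear and 0.32 for mitochondrial members.

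The difference between the sexes in the C26 response called no member by edgeR or DESeq2 at 10, 20 or 25 days, where 0.00635%, 0% and 0.0635% of all genes were called, and none by limma-voom. At 10 days the mitochondrial members had a median of -0.42, with all 7 below 0 and 4 at an unadjusted p below 0.05. At 20 days all 38 nuclear members lay above 0 with a median of 0.12, and all 7 mitochondrial members lay below 0 with a median of -0.22. At 25 days the medians were 0.08 and 0.21. The shares of all genes above or below 0 are not given here. All members were measured in the same libraries, so their signs are not independent of each other.

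Other genes of the pathway were counted in the APC experiment, where 17.9% of all genes were called lower in females and 16.5% in males. Of 17 assembly factors tested, 13 were lower in females and 10 in males, led by Ndufaf5 (-1.44 ± 0.33) and Ndufaf2 (-1.31 ± 0.31) in females and by Ndufaf1 (-1.14 ± 0.20) and Ndufaf5 (-0.93 ± 0.32) in males. Ndufaf1 belongs to the complex that builds the membrane arm, and Ndufaf5 and Ndufaf2 act on the Q and N modules. Of the 6 other mitochondrial mRNAs, 5 were lower in females and 4 in males, led by mt-Co2 (-1.61 ± 0.33) and mt-Co1 (-1.16 ± 0.26). Nuclear subunits of the other respiratory complexes were lower in 36 of 44 in females, and in males 16 were lower and 2 higher (Cox6a2 at 0.81 and Cox8a at 0.79).

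Of the genes that handle mitochondrial RNA, 1 of 23 was higher and 7 lower in females, and 2 were higher and 9 lower in males, where 38.0% and 33.1% of all genes were called in either direction. Lrpprc, which stabilises mitochondrial mRNAs, fell by 0.97 ± 0.26 in females and by 1.48 ± 0.26 in males, while Elac2, which trims transfer RNA ends, was higher in females (0.86 ± 0.19) and Mterf4 was higher in males (0.98 ± 0.26). Of 7 genes of mitochondrial DNA maintenance, Mgme1 and Twnk were lower in both sexes and none was higher. Of 10 regulators of respiratory genes, 3 were higher and 3 lower in females, and 2 higher and 6 lower in males. Esrrb was the lowest of them at -1.99 ± 0.66 and -2.60 ± 0.68, and Nrf1 was higher at 1.01 ± 0.17 and 0.43 ± 0.17.

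In C26 males at 25 days, where 22.3% of all genes were called, 5 of 17 assembly factors were lower and none higher, with Dmac2 (-0.35 ± 0.10) and Acad9 (-0.34 ± 0.11) in front. Of the genes that handle mitochondrial RNA, 7 of 23 were lower and 2 higher, with Tfb1m at -0.51 ± 0.12 and Mterf4 at 1.09 ± 0.20. Of the regulators, 3 were lower and 2 higher, with Ppargc1b at -0.94 ± 0.30 and Pprc1 at 0.44 ± 0.13. Nuclear subunits of the other complexes were lower in 7 of 44 and higher in 1, and neither Myh2 nor any of the 6 slow fibre and 8 fast muscle markers was called by edgeR, with 0, 2 and 2 of them at an unadjusted p below 0.05. Neutrophil markers were higher in 5 of 5, with sums of 1.43 to 7.35 CPM in PBS males and 10.0 to 120 at 25 days, and erythroid markers in 6 of 6, with sums of 1614 to 4312 and 2019 to 15752. Macrophage and liver markers were each higher in 4, of 7 and 6 tested. Whether these had a part in the changes of Ndufs1, Ndufa9 and Ndufa7 was not tested.

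Some markers of other cells and fibre types were called between the genotypes in the APC experiment. Over all genes 38.0% were called in females and 33.1% in males, in either direction. Marker levels are CPM of the library total, not TMM-scaled. Erythroid markers, mostly haemoglobin, were higher in 6 of 6 in both sexes, and their summed level ran from 172 to 836 CPM in female wild types and from 1804 to 15208 in APC+/Min. In males it ran from 472 to 1356 and from 6475 to 56270. Neutrophil markers were higher in 5 of 5 in both sexes, with sums of 0.277 to 1.15 and 7.69 to 45.4 CPM in females and of 0.0713 to 2.63 and 19.9 to 163 in males. Macrophage markers were higher in 1 of 7 in both sexes, with sums of 2.65 to 68.5 and 11.2 to 50.9 CPM in females and of 7.95 to 29.3 and 10.9 to 131 in males. Their part in the fall of the complex I genes was not tested. With haemoglobin left out of the scaling, an alternative added after seeing the data, 34 nuclear and 7 mitochondrial members were called lower in females, and in males 8 nuclear members were lower, 1 higher and 6 mitochondrial members lower.

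Myh2, the myosin of oxidative fast fibres, fell in both sexes. It ran from 321 to 2069 CPM in female wild types and from 18.8 to 155 in APC+/Min, without overlap, and from 67.2 to 1660 and 14.1 to 476 in males. The slow fibre markers, whose sums stayed between 3.64 and 344 CPM in the APC experiment, had 1 of 6 lower in females. The fast muscle markers were lower in 5 of 8 in females and 2 of 8 in males. Over all genes 17.9% were called lower in females and 16.5% in males. The fast muscle sums were 110231 to 155534 CPM in female wild types and 60736 to 161501 in APC+/Min. In males they were 96703 to 141167 and 62119 to 156293. Adipocyte sums stayed at or below 4.11 CPM. Liver sums were at most 0.420 CPM in APC males and reached 16.7 and 23.4 in 1 library each of female wild types and female APC+/Min. The share of fibre types in the fall of the members was not tested.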

How the data were processed

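Polyadenylated RNA of tibialis anterior muscle was sequenced in 88 libraries. Each library was taken as 1 mouse, which the labels do not state for all of them, and the p-values speak only to the spread among libraries. The authors deposited 1 table of estimated counts per gene for 56065 Ensembl identifiers, and 9.70% of its values are not whole numbers. Per the submitters' processing notes, the build was GRCm39 (mm39) and the tools included edgeR, limma, Salmon 1.10.2 and R 4.4.1. Annotation, strand setting and Salmon options: not given in the sources used here. Hence genes that overlap on opposite strands could not be told apart. The deposited counts were rounded to whole numbers. Symbols and transcript lengths came from GENCODE M21 (GRCm38), which named 51272 identifiers holding 99.0% of counts, and no coordinate of the counted genes was taken from it.

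The C26 (60 libraries, 8 groups) and APC (28 libraries, 4 groups) experiments were fitted apart in edgeR 4.0.16 (R 4.3.3): filterByExpr, TMM scaling and a quasi-likelihood fit with 1 mean per group, with contrasts for tumour against control, 25 against 10 days, males against females and the difference of sexes. P-values were adjusted by Benjamini-Hochberg over all genes tested (15742 and 14795), with a threshold of 0.05, and SE was the log2 change divided by the root of F. The scripts were tested on simulated data. Depth was 18.2 to 30.7 M counts per library (M, counts divided by 1000000), at which all members passed the minimum mean of 1 CPM. Levels set across the experiments were scaled apart.

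The values of 1 member are not reported here, while counts, medians and sums include it. The members and gene lists were chosen with earlier results of these data known. Named with values were the 7 mt-Nd genes, the 7 nuclear core genes, Ndufa4 and Ndufa4l2, and per comparison up to 6 nuclear members with the largest rise and 6 with the largest fall among those called; of other lists, up to 2 called per direction. Alternatives were DESeq2 1.42.0, limma-voom with quality weights (limma 3.58.1), library totals or scaling without mitochondrial genes, no filter, the length slope as a covariate, the replicate number as a block, each comparison's groups alone, and libraries left out singly or by Alb. Promoter words were searched in RefSeq windows of GRCm38.p6.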

Additional observations from a re-analysis of the deposited data

Results flagged for a closer look

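In each group of 4 to 10 libraries the highest and lowest values were compared with their nearest neighbour by Dixon's criterion. This was done for 9 single members in 108 groups and for the nuclear sum, the mitochondrial sum and their ratio in 36 groups. Chance marks about 1 in 20 such groups, and 15 and 2 were marked. All members and sums come from the same libraries, so these marks are not independent of each other.

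Replicate 6 of the C26 females at 25 days stood apart in 9 of them. Its nuclear sum was 15204.5 CPM, with the next library of the group at 8243.53, and its ratio of mitochondrial to nuclear sum was 1.94192, with the next at 6.26103. Among members it was lowest in mt-Nd4l (111.703 CPM, next 760.826) and Ndufs1 (194.497, next 358.44). It was highest in Ndufs8 (297.274, next 169.507), Ndufv1 (541.586, next 443.41), Ndufa7 (296.719, next 107.629), Ndufab1 (368.273, next 248.184) and Ndufb2 (242.833, next 142.31). Its length slope was -0.55.

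Replicate 2 of the C26 males at 20 days was lowest in Ndufs1 (236.35 CPM, next 492.542) and Ndufv1 (387.03, next 458.443) and highest in Ndufa7 (165.182, next 101.556) and Ndufb2 (223.946, next 147.632). Its length slope was -0.28. In the APC females, wild type replicate 8 was lowest in Ndufs1 (304.752 CPM, next 421.892) and had the lowest slope of its group at -0.16, and wild type replicate 7 was lowest in Ndufv1 (272.167, next 343.815) and had the highest slope at 0.09. Replicate 4 of the C26 males at 10 days was lowest in Ndufa9 (238.159 CPM, next 290.359). Replicate 8 of the PBS males was highest in Ndufa7 (92.613 CPM, next 85.3794).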

How the results depend on the processing

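All values here are counts of members called. The shares of all genes called under these settings are not given in this section. Library totals in place of TMM gave 5 nuclear members at 25 days in C26 males and 3 between the sexes after PBS. Without a filter on low counts the sexes differed in 0 nuclear members after PBS, and 0 mitochondrial members were called between 25 and 10 days in C26 males. Limma-voom with quality weights called 3 nuclear members in females and 8 in males at 25 days, 29 and 11 between 25 and 10 days (0 mitochondrial in males), 17 nuclear and 1 mitochondrial between the sexes after PBS, 2 nuclear between APC wild types, and 25 nuclear and 1 mitochondrial for the difference of sexes in APC+/Min, where DESeq2 called 2 nuclear. The length slope as a covariate gave 14 nuclear members at 25 days in males, 17 nuclear and 6 mitochondrial in females and 21 and 0 in males between 25 and 10 days, 0 nuclear between the sexes after PBS and 32 in APC males. Groups fitted alone gave 0 mitochondrial members between 25 and 10 days in either sex, 27 nuclear and 1 mitochondrial between PBS sexes, 7 nuclear in APC males and 1 between APC wild types. Without libraries with Alb at 10 CPM or more, 0 mitochondrial members were called between 25 and 10 days in males and 3 nuclear for the APC difference of sexes, which held 21 without male wild type replicates 1 and 2. The cause of these shifts was not tested.

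With 1 library left out, nuclear counts ran from 31 to 35 in APC females, 8 to 17 in APC males, 0 to 6 for their difference, 1 to 5 at 25 days in C26 males, 0 to 3 (females) and 2 to 4 (males) between 25 and 10 days, and 0 to 1 between PBS sexes. Mitochondrial counts ran from 5 to 7 in APC females, 6 in APC males each time, 0 to 4 (females) and 0 to 1 (males) between 25 and 10 days. At 25 days in C26 males the balance of directions turned without replicate 1 (5 called, 3 higher) and without replicate 8 (3 called, 2 higher). Of 4700 alternative values of 178 single results, 4546 stayed on the same side of the threshold. A further 119 fell short of it, 35 newly passed it and 0 changed direction while called. Direction was compared only where the main fit or the alternative called the member, and some uncalled values changed sign.

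The replicate number as a block gave 7 nuclear members in APC males, 0 mitochondrial between 25 and 10 days in C26 males and 0 nuclear between PBS sexes. Same-numbered libraries correlated between -0.504 and 0.366 over all pairs. In C26 females and males and APC females and males, 4 of 29, 4 of 31, 4 of 14 and 1 of 14 libraries correlated best with their own number. The median correlations, in that order, were 0.006, 0.024, 0.056 and 0.035 for same numbers. For different numbers they were -0.004, -0.002, -0.009 and -0.018. No rate expected by chance was worked out, so whether same-numbered libraries share more than a number was not tested.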
